A study of Mus musculus with 2 samples.

Results

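The set described here is 48 genes of the matrix that cells secrete around themselves, collagens left out. It holds laminins, their linkers in the basement membrane, fibronectin and the elastic fibre proteins, lysyl oxidases, matricellular proteins and proteoglycans. A gene was taken as measured where GEO's platform annotation gave a probe set its symbol and no other. Such a probe set was found for 44 of the 48 genes, out of 18193 genes on the array. Fbn1, Efemp2 and Spp1 had none and Loxl2 only probe sets that also carry another symbol, so these 4 genes were not counted here. Each gene was represented by its brightest probe set, by the mean of both arrays.

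Expression had been profiled with Affymetrix arrays in primary endothelial cells, the lining cells of blood vessels, cultured from mouse embryos of strain C57/BL6 at stage E10.5. All cells came from Snail1 f/f embryos, in which the gene for the zinc finger repressor Snail1 can be removed by Cre recombinase. The WT array holds cells infected with an adenovirus for β-galactosidase (Adeno-βGal), and the Snail1 KO array holds cells infected with an adenovirus for Cre. The comparison asks how matrix gene expression differs when embryonic endothelial cells are given Cre to delete Snail1. Each group is 1 array, so no spread between cultures can be given, no difference was tested, and the number of arrays limits the precision. The control carries the floxed allele too, and no array holds Cre without it, so in every value here loss of Snail1, Cre and its virus cannot be told apart. The labels give 20% serum for both cultures. They do not give the number of embryos or how purely the cells were isolated.

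Endothelial cells lie on a basement membrane, a sheet in which laminin trimers and collagen polymerise and are tied together by nidogens and heparan sulfate proteoglycans. Outside it, fibronectin fibrils and microfibrils form the scaffold on which elastin is laid down and then crosslinked by lysyl oxidases. Matricellular proteins such as tenascins and thrombospondins are not structural; they bind the matrix and cell receptors and tune adhesion and vessel growth. Snail1 is best known from epithelial to mesenchymal transition, in which cells lose epithelial genes and gain matrix genes such as fibronectin.

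Snai1 itself had a log2 value of 5.33 on the WT array and 3.59 on the Snail1 KO array. The endothelial identity of the cells was checked on 10 markers, and all 10 were above the filter level of 3.97 on both arrays. That level is the 40th percentile over all non-control probe sets and serves to drop dim genes, not to call a gene detected. Among markers of other cells, the summed linear signal of 12 smooth muscle and pericyte genes was 3636 on the WT array and 1025 on the Snail1 KO array, with Rgs5 below the filter level on both. The 11 fibroblast markers summed to 3161 and 2987, and 5 of them (Pdgfra, Tcf21, Tbx18, Twist1 and Dpt) were below the level on both arrays. The 10 leukocyte markers summed to 435 and 370, the 10 of visceral and yolk sac endoderm to 495 and 378, the 7 erythroid ones to 528 and 419, and the 6 neural ones to 1274 and 482. Single genes carried some of these sums. Sox17 was the brightest endoderm marker, at 8.21 on the WT array and 7.75 on the Snail1 KO array. Tfrc was the brightest erythroid marker, at 8.69 and 8.34. Stmn2 was at 10.18 on the WT array and 8.53 on the Snail1 KO array, while Sox10, Tubb3 and Elavl3, the other neural markers above the level, differed by -0.02 to -0.10. Among the leukocyte markers, Coro1a was 3.89-fold lower and Mrc1 2.88-fold higher, the latter from a WT value of 3.68, below the level. Below the level on both arrays were Ptprc, Tyrobp and Itgam among the leukocyte markers, Afp, Apob, Amn, Foxa2 and Rbp4 among those of endoderm, Hba-a1, Hbb-bh1 and Alas2 among the erythroid ones, and Sox2 and Dcx among the neural ones. The gap between the 3′ and 5′ control probe sets of Actb, which widens as RNA degrades, was 0.30 (WT) and 0.34 (Snail1 KO) log2 units.

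Most matrix genes above the filter level stayed within 1.5-fold, although a larger share passed it than among all genes. The few differences past 2-fold were spread over several roles. Of the 44 genes, 35 had a mean above the filter level. Of these 35, 4 (11.4%) differed by at least 2-fold, with 2.86% higher and 8.57% lower. Tnxb was higher on the Snail1 KO array, and Efemp1, Thbs2 and Vcan were lower. Of all 12874 genes above the level, 2.81% differed by at least 2-fold, with 0.971% higher and 1.84% lower. Vcan passed the filter through its WT value alone, so it could enter this count only by being different. Over the 44 genes without any filter the count was the same, with 1 gene at least 2-fold higher and 3 lower, against 0.698% and 1.34% of all 18193 genes.

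At 1.5-fold the count over the 35 genes was 5 higher (Tnxb, Eln, Lama5, Fbln2 and Lamc1) and 8 lower (Efemp1, Thbs2, Vcan, Tnc, Bgn, Fbn2, Ecm1 and Lamb1). These counts were 14.3% and 22.9% of the 35 genes, beside 5.06% higher and 6.08% lower of all 12874 genes. In all, 22 of the 35 matrix genes stayed within 1.5-fold. Their median log2 difference, Snail1 KO minus WT, was -0.09, beside -0.0083 for all genes above the level, and 22 of the 35 were lower against 50.9% of all genes. The matrix genes therefore lay on both sides of no difference, with more of them below it.

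**Figure D1:**
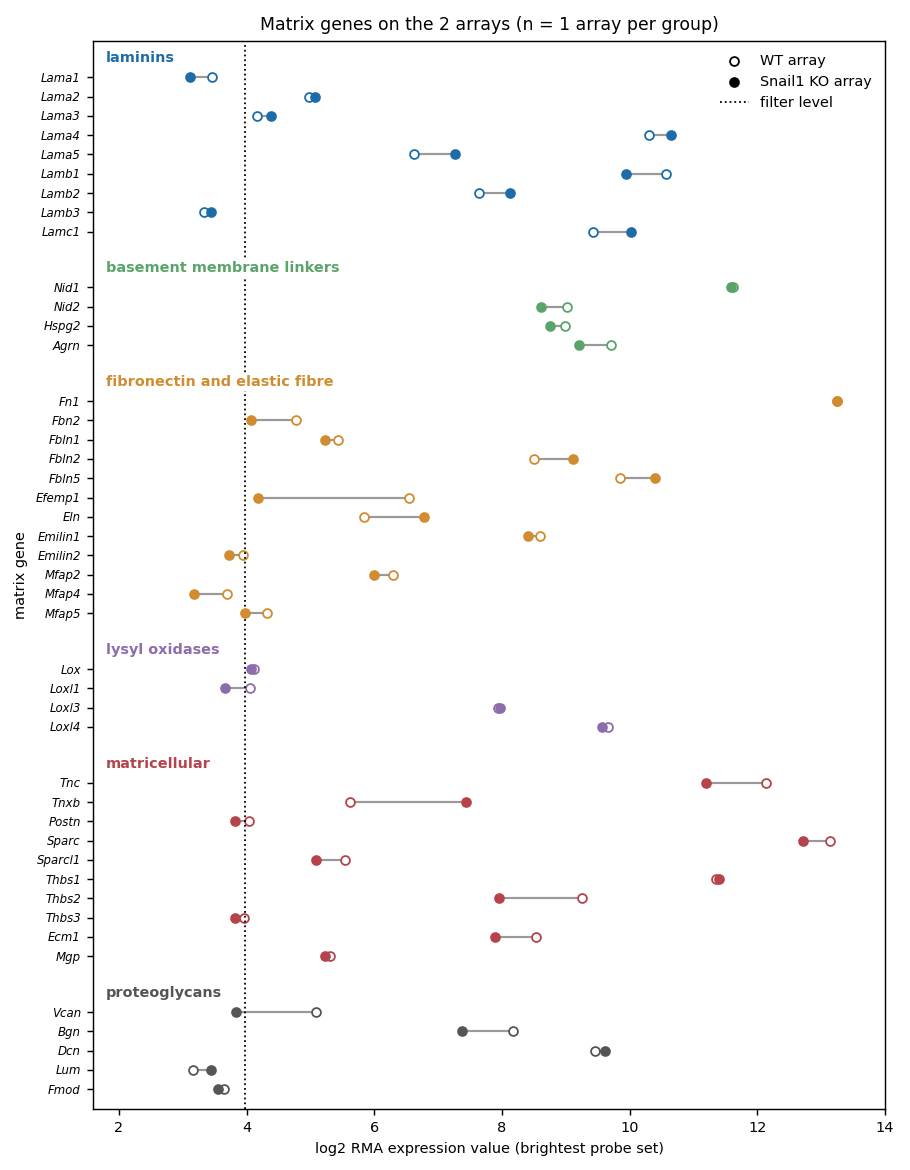
Log2 expression values of the 44 matrix genes on the WT array (open circles) and the Snail1 KO array (filled circles), grouped by role, with 1 array per group and the filter level of 3.97 as a dotted line. The long gaps are those of Efemp1 (6.54 and 4.18), Tnxb (5.62 and 7.44), Thbs2 (9.25 and 7.95) and Vcan (5.08 and 3.83), and the 9 genes that missed the filter lie left of the line on the Snail1 KO array.

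The DNA just before the transcription starts of the 4 genes past 2-fold is printed here because these genes carry the largest differences. Each stretch is the 250 bases before an annotated start in RefSeq (GRCm38.p6), read 5′ to 3′ on the gene's strand. They lie at chr11:28852955-28853204 (plus strand) for Efemp1, chr17:14694263-14694512 (minus strand) for Thbs2, chr13:89742513-89742762 (minus strand) for Vcan and chr17:34670285-34670534 (plus strand) for Tnxb. Capitals mark matches to 3 motifs searched on both strands: CAGGTG, the E-box that Snail proteins are known to bind, TGANTCA, the site of AP-1 factors, and TATAAA, the TATA box.
Efemp1: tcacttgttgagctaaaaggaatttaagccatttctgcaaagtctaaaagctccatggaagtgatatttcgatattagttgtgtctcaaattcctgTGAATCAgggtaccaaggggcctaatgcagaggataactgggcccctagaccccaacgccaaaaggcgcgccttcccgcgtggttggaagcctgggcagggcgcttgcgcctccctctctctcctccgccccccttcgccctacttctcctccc
Thbs2: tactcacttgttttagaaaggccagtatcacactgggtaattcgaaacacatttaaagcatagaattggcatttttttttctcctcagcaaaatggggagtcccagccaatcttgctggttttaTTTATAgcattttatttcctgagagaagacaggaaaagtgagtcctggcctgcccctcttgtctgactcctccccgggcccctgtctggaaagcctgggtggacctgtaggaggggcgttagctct
Vcan: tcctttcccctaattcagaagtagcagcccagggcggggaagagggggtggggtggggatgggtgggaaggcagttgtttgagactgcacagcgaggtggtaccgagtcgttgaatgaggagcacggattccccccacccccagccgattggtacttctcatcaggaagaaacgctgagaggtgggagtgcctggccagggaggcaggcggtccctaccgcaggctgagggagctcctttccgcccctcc
Tnxb: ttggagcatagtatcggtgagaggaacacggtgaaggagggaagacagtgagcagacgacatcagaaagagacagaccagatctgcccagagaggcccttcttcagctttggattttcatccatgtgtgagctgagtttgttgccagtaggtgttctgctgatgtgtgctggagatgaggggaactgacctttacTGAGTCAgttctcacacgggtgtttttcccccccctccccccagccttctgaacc
The E-box letters were in none of these 4 stretches. The AP-1 letters occurred once in Efemp1, 154 bases before the start, and once in Tnxb, 55 bases before it, although Efemp1 was lower and Tnxb higher on the Snail1 KO array. In Thbs2 the TATA letters lay on the opposite strand, 126 bases before the start. The share of G and C was 53.6% for Efemp1, 46.8% for Thbs2, 62.4% for Vcan and 52.4% for Tnxb, against a median of 52.4% over all 32851 RefSeq windows.

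Promoter windows of 300 bases, reaching 50 bases past the start, were found for 26 of the 44 matrix genes. CAGGTG was in a window of 3 of these 26 genes, Lama5, Lamb3 and Sparc, and in 22.6% of the 27025 genes with a window. TGANTCA was in 3 of 26, Ecm1, Efemp1 and Tnxb, against 8.97% of all genes, and TATAAA in 4 of 26, Ecm1, Postn, Thbs2 and Tnc, against 15.7%. The 3 genes with the E-box did not share a direction: Lama5 differed by 0.64, Sparc by -0.42 and Lamb3, below the level, by 0.12. Lama5 and Lamb3 each had it 2 times, and Sparc had it at the start itself. The Lama5 stretches are shown as an example, chosen after the letters had been found, because both lie wholly before the start. They lie at chr2:180226088-180226109 and chr2:180226028-180226057 on the minus strand, with the E-box in capitals, read as CACCTG where it is on the opposite strand.
Lama5 distal: ccacCACCTGggagagaggaaa
Lama5 proximal: gcgggcggccagCAGGTGccccttccagga
Such matches describe the letters of these windows and do not show binding.

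Laminins, the trimeric proteins that start a basement membrane, were mostly a little higher on the Snail1 KO array. Of 9 laminin genes, 7 were above the filter level. Of these, 6 were higher, 1 was lower and none passed 2-fold, with a median difference of 0.35. Over all genes above the level, 50.9% were lower, 2.81% passed 2-fold and the median was -0.0083. Lama5 and Lama4 encode the alpha chains typical of vessel basement membranes. Lama5 had log2 values of 6.61 on the WT array and 7.26 on the Snail1 KO array, a difference of 0.64, and a further probe set above the level gave 0.35. Lama4 was at 10.30 and 10.65, a difference of 0.35, and 0.05 in its other probe set. Lamc1, the gamma chain shared by most laminins, was at 9.43 and 10.02, with differences of 0.59 and 0.27 in its 2 probe sets. All probe sets above the filter of these 3 genes were thus higher, by unequal amounts.

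The beta chains went opposite ways. Lamb1, the beta chain of most embryonic laminins, was at 10.56 on the WT array and 9.94 on the Snail1 KO array, a difference of -0.62. Its further probe sets gave -0.70 and 0.12, so 1 of its 3 probe sets above the level had the other sign. Lamb2, the beta chain that is more prominent in mature vessels and synapses, was at 7.64 and 8.13, a difference of 0.49 in its only probe set. Lama2, the alpha chain of muscle and nerve basement membranes, differed by 0.09 and Lama3, that of epidermal anchoring laminin, by 0.22. Both were dim, at 4.98 and 4.17 on the WT array, and the second Lama3 probe set, below the level, gave -0.16. Lama1, an early embryonic alpha chain, was at 3.46 and 3.11 and Lamb3, an epidermal beta chain, at 3.33 and 3.45, below the level on both arrays.

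The proteins that tie laminin into the basement membrane were slightly lower, all 4 within 1.5-fold and with a median difference of -0.32. The median over all genes above the level was -0.0083, and 50.9% of them were lower. Agrn, the heparan sulfate proteoglycan agrin, was at 9.71 on the WT array and 9.20 on the Snail1 KO array. Nid2, a nidogen that bridges laminin and collagen, was at 9.01 and 8.61. Hspg2, the proteoglycan perlecan, was at 8.98 and 8.75, and its 2 probe sets gave -0.24 and -0.25. Nid1, the other nidogen, was at 11.62 and 11.58, and its 3 probe sets gave -0.04, -0.29 and 0.32. Hspg2 was lower in both of its probe sets, and Nid1 had no single direction. The differences of Agrn and Nid2 rest on 1 probe set above the level each.

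Fibronectin and the microfibril and elastic fibre genes held the largest negative difference of the set. Efemp1, a fibulin family glycoprotein of basement membranes and elastic fibres, was at 6.54 on the WT array and 4.18 on the Snail1 KO array, 5.14-fold lower. It ranked 26 from the lowest difference among 12874 genes. The difference rests on 1 probe set, and the Snail1 KO value lies just above the filter level, where RMA compresses differences. Fn1, fibronectin, was at 13.24 on both arrays in its brightest probe set, and at 8.61 and 8.17 in the other, a difference of -0.43. The 2 probe sets of Fn1, a gene that Snail1 is known to raise in epithelial cells, thus differed in size.

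Elastin and 2 fibulins were higher. Eln, the elastic core protein, was at 5.84 on the WT array and 6.78 on the Snail1 KO array, 1.92-fold higher, but its other probe set gave 0.14. Fbln5, a fibulin that guides elastin onto microfibrils, was at 9.85 and 10.40, 1.47-fold higher. Fbln2, a fibulin of vessel walls and developing heart valves, was at 8.51 and 9.11, 1.52-fold higher. The further probe sets of Fbln5 and Fbln2 were below the level, so these 2 differences rest on 1 probe set each.

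The remaining genes of this role were lower or near no difference. Fbn2, the fibrillin of embryonic microfibrils, was at 4.78 on the WT array and 4.06 on the Snail1 KO array, 1.64-fold lower, and its other, dimmer probe set gave -0.76. Mfap2 and Mfap5, glycoproteins bound to microfibrils, differed by -0.30 and -0.35. The second Mfap2 probe set gave -0.55. Mfap5 was dim, at 4.33 and 3.98. Emilin1, an elastic fibre glycoprotein, differed by -0.19 and Fbln1, a fibulin of basement membranes, by -0.19. The other Emilin1 probe set gave 0.07, and all 3 Fbln1 probe sets were lower by less than 0.2. Emilin2 (3.94 and 3.73) and Mfap4 (3.69 and 3.18) were below the level. Over the 10 genes of this role above the level, 3 were higher and 7 lower, with a median of -0.19. Of all genes above the level, 50.9% were lower.

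Lysyl oxidases are copper enzymes that crosslink collagen and elastin, and those counted above the level hardly differed in their brightest probe sets. Loxl2 was not counted, but its probe sets, which also carry another symbol, differed by -0.44 and -0.77. The brighter was at 11.0 on the WT array and 10.6 on the Snail1 KO array. Loxl4 was at 9.66 on the WT array and 9.57 on the Snail1 KO array, and its other probe set gave 0.30. Loxl3 was at 7.93 and 7.97. Lox was dim, at 4.12 and 4.07, and Loxl1, at 4.06 and 3.66, had a mean below the level. None of the 3 counted above the level differed by more than 0.09 in its brightest probe set.

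Matricellular and related genes held the largest positive difference and also the second largest negative difference of the set. Tnxb, tenascin-X, a tenascin of connective tissue that binds collagen fibrils, was at 5.62 on the WT array and 7.44 on the Snail1 KO array, 3.51-fold higher. It ranked 8 from the highest difference among 12874 genes and has 1 probe set. Tnc, tenascin-C, the tenascin of embryonic and remodelling tissue, went the other way, at 12.13 and 11.19 (1.92-fold lower). The second Tnc probe set was lower too, by a log2 difference of -0.52. The 2 tenascins thus differed in opposite directions, which is a description of 3 probe sets on 2 arrays.

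Thrombospondins are secreted proteins, of which Thbs1 and Thbs2 restrain vessel growth and bind the receptors Cd36 and Cd47. Thbs2 was at 9.25 on the WT array and 7.95 on the Snail1 KO array, 2.47-fold lower. Its other probe sets were at 8.17 and 7.26 and at 7.08 and 5.67. These gave log2 differences of -0.91 and -1.42, so all 3 were lower. Thbs1, its close relative, was at 11.35 and 11.40 in its brightest counted probe set, and its other probe set differed by -0.25. A brighter Thbs1 probe set, which also carries another symbol and was not counted, was at 11.88 and 11.64, a difference of -0.24. Thbs3 was below the level, at 3.95 and 3.82. Among the thrombospondins, Thbs2 was the one that passed 2-fold.

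**Figure D2:**
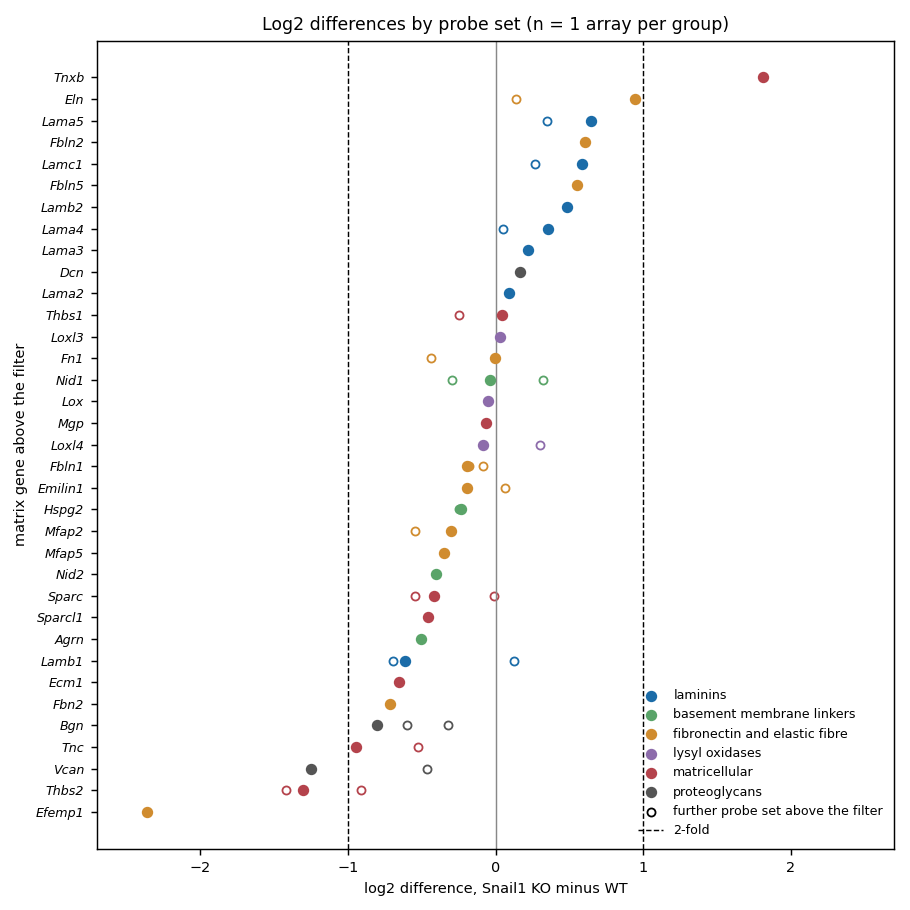
Log2 differences, Snail1 KO minus WT, of the 35 matrix genes above the filter level, sorted, with filled points for the brightest probe set coloured by role and open points for further probe sets above the level; dashed lines mark 2-fold. The 3 Thbs2 points lie between -1.42 and -0.91 and the 3 Bgn points between -0.80 and -0.32, while Lamb1, Nid1, Loxl4, Emilin1 and Thbs1 have points on both sides of 0.

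Sparc, a collagen-binding glycoprotein that endothelial cells secrete in abundance, was at 13.13 on the WT array and 12.71 on the Snail1 KO array. Its other probe sets gave differences of -0.54 and -0.01. Sparcl1, its relative, was at 5.54 and 5.08, a difference of -0.46. Ecm1, a secreted glycoprotein that binds perlecan and fibulins, was at 8.54 and 7.88, 1.57-fold lower. Mgp, an inhibitor of vessel calcification, was at 5.30 and 5.23. Postn, periostin, at 4.03 and 3.82, had a mean below the level. Of the 8 genes of this role above the level, 2 were higher and 6 lower, with a median of -0.44. Of all genes above the level, 50.9% were lower.

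Of the proteoglycans, versican and biglycan were lower and decorin was not. Vcan, versican, a large hyaluronan-binding proteoglycan of the embryonic heart and vessels, was at 5.08 on the WT array and 3.83 on the Snail1 KO array, 2.37-fold lower. The Snail1 KO value is below the filter level. Its next probe set was at 4.34 and 3.87, and the other 6 were below the level, with differences from -0.28 to 0.19. Bgn, biglycan, a small leucine-rich proteoglycan, was at 8.17 and 7.37 (1.75-fold lower), and its other probe sets gave -0.60 and -0.32. Dcn, decorin, of the same family, was at 9.45 and 9.62, a difference of 0.17. Lum (3.16 and 3.44) and Fmod (3.64 and 3.55), also small leucine-rich proteoglycans, were below the level. Bgn was therefore lower in all 3 of its probe sets, whereas the Vcan difference rests on dim ones.

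**Figure D3:**
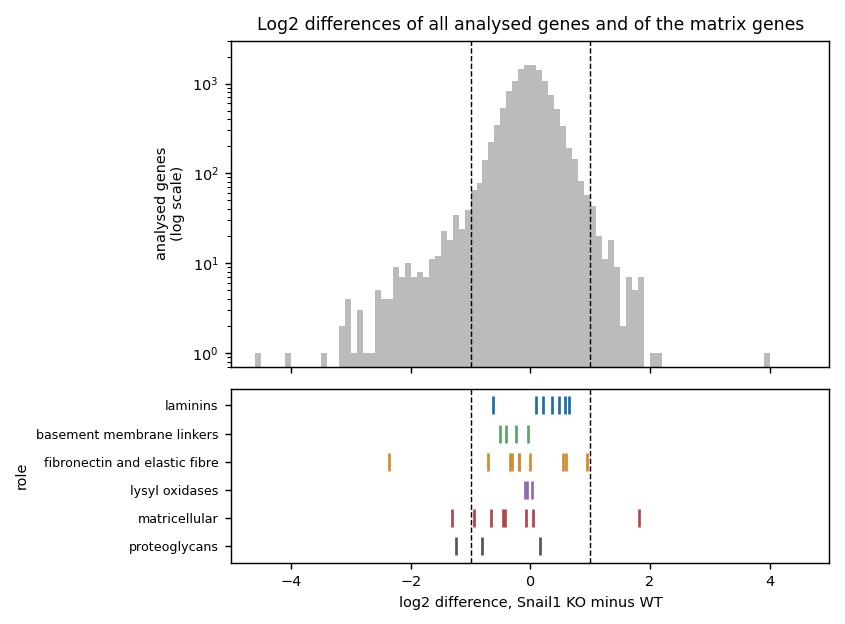
The upper panel counts all 12874 genes above the filter level by log2 difference, Snail1 KO minus WT, in bins of 0.1 on a logarithmic count axis, and the lower panel marks the 35 matrix genes by role; dashed lines are 2-fold. The matrix genes lie on both sides of 0, from -2.36 for Efemp1 to 1.81 for Tnxb, with the 4 basement membrane linkers between -0.50 and -0.04.

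Where a gene had several probe sets above the filter, they had 1 sign in 13 of 18 matrix genes and in 56.0% of 6053 genes overall. The 5 exceptions were Lamb1, Nid1, Emilin1, Loxl4 and Thbs1. Among all genes above the level, the central 95% of log2 differences ran from -0.86 to 0.76. Outside it lay Efemp1, Thbs2, Vcan and Tnc on the lower side and Tnxb and Eln on the upper side. This range describes these 2 arrays and holds probe error as well as any change; it does not stand in for replicate cultures.

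The lower matrix genes stood beside lower smooth muscle genes. Tagln, which binds actin in contractile cells, was at 10.35 on the WT array and 7.80 on the Snail1 KO array. Acta2, the actin of smooth muscle, was at 10.94 and 9.09. Myh11, its myosin, was dim, at 4.16 and 3.25, with a mean below the filter level. Of the 12 markers of that list, 10 were above the filter level, 7 of them lower (3 past 2-fold) and 3 higher. The third past 2-fold was the myosin chain gene Myl9 (2.51-fold lower), and the 3 higher were Abcc9 (0.12), Cspg4 (0.10) and Des (0.0075). Of all genes above the level, 50.9% were lower and 1.84% at least 2-fold lower. Of the other pericyte markers, Pdgfrb and Notch3 were dim and differed by -0.40 and -0.32. Fewer cells of a type and less RNA per cell cannot be told apart in such samples. The part of these cells in the matrix differences was not tested. The smooth muscle sum was 3.55-fold lower and the fibroblast sum 1.06-fold lower. The fibroblast sum is mostly Thy1, at 11.43 and 11.37; Col3a1, a fibrillar collagen of the same list, was at 7.33 and 6.33, and Col1a2 at 6.95 and 7.26.

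Other secreted matrix genes outside the set also differed both ways. Of 69 such genes listed, 68 were matched and 42 were above the level; 3 of these were at least 2-fold higher and 5 lower, with a median difference of 0.01. Over all 12874 genes the shares were 0.971% and 1.84%. Reln, reelin, a glycoprotein made by lymphatic endothelium, was 3.43-fold higher. Sned1, a fibronectin domain protein, was 3.17-fold higher. Npnt, nephronectin, an integrin ligand of basement membranes, was 2.11-fold higher, but its 4 probe sets above the level ran from -0.03 to 1.07. On the lower side, Esm1, endocan of sprouting tip cells, was at 8.68 in WT cells and 6.13 in Snail1 KO cells. Pcolce2, an enhancer of procollagen cleavage, was 2.89-fold lower, and Srgn, a proteoglycan of secretory granules, was 2.15-fold lower. The matricellular gene Ccn1 was 3.37-fold lower and lower in all 4 probe sets, its relative Ccn4 was 2.13-fold lower and Ccn2 1.55-fold lower, while Ccn3 was 1.90-fold higher.

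Receptors for these matrix proteins likewise split. Of 28 receptor genes, 26 were above the level; 3 were at least 2-fold higher and 2 lower, with a median difference of -0.07, against the same shares of 0.971% and 1.84% over all genes. Cd36, the thrombospondin receptor, was at 5.31 on the WT array and 7.46 on the Snail1 KO array, and its other probe set was higher by 1.47. Cd47, which also binds thrombospondins, was at 11.68 and 11.61. Itga9, an integrin chain that binds tenascin-C, was 2.52-fold higher, with probe sets from 0.20 to 1.33. Itgb4, the beta chain of the laminin-binding integrin with Itga6, was 2.15-fold higher, while Itga6 was at 11.59 and 11.58. Among other receptors that bind laminin, Dag1 and Bcam differed by 0.42 and 0.38. Itga1, Itga2, Itga3, Itga7 and Mcam went the other way, by -0.71, -0.34, -0.14, -0.06 and -0.94. On the lower side, Cd44, the hyaluronan receptor, was 4.70-fold lower with a further probe set at -2.11, and the syndecan Sdc4 was 2.03-fold lower. Itga5, the alpha chain of the fibronectin receptor, was at 8.01 and 7.31, with further probe sets up to 0.28. Of other integrin chains, Itga8 was 1.69-fold higher, with 1.21 in its other probe set. Itgav and Itgb1 differed by 0.19 and 0.11, each with probe sets on both sides of 0. Itgb3 and Itgb5 differed by -0.07 and 0.0065.

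**Figure D4:**
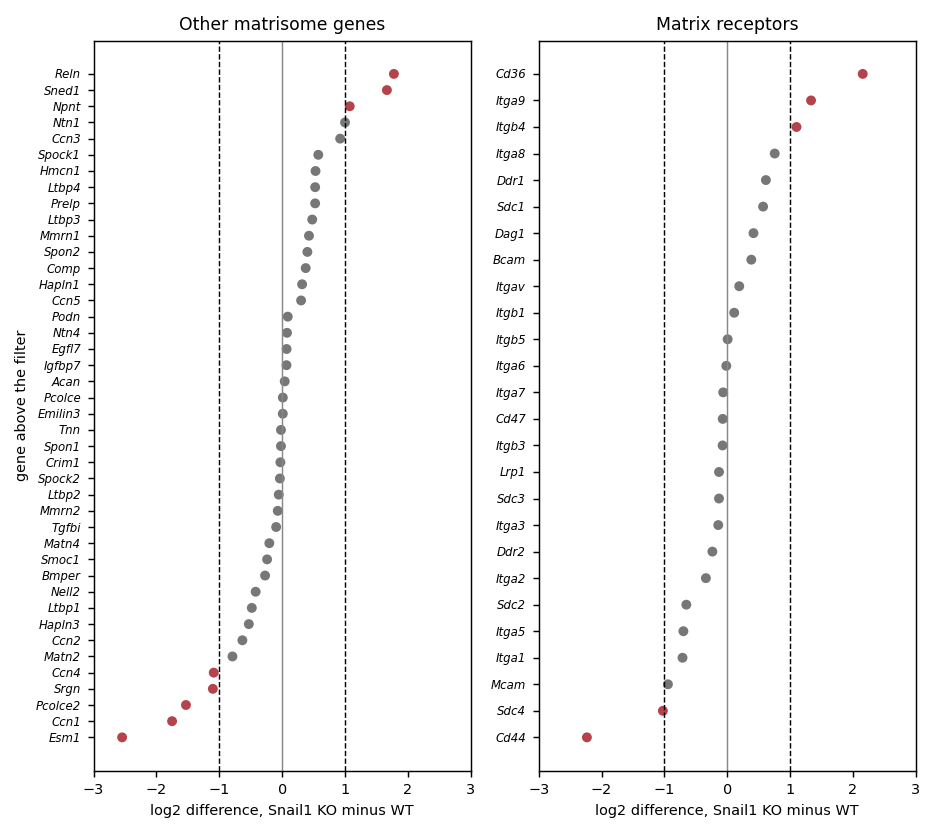
Log2 differences, Snail1 KO minus WT, of the 42 other secreted matrix genes (left) and the 26 matrix receptors (right) above the filter level, sorted, with those past 2-fold in red and dashed lines at 2-fold. Both panels cross 0, from -2.55 for Esm1 to 1.78 for Reln on the left and from -2.23 for Cd44 to 2.16 for Cd36 on the right.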

How the data were processed

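Total RNA of 2 cultures of embryonic endothelial cells, 1 per group, was amplified from 250 ng and hybridised to Affymetrix arrays, per the labels' protocols. The deposited values are log2 values, made by the authors with RMA (affy package), as the submitters' processing notes list; the versions are not given in these sources. RMA corrects background, makes the arrays' distributions alike (sorted values differed by at most 0.13) and compresses differences of dim probe sets. Of 45101 probe sets, 64 were controls, 34945 carried 1 symbol, 932 several and 9160 none here. The last 2 kinds were not used, except for the Loxl2 probe sets and a Thbs1 probe set, which were described without being counted.

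The members and lists were chosen with earlier results of these data known. Groups came from the sample titles. The brightest probe set stood for a gene, genes with a mean above the 40th percentile were counted by fold, and differences were taken as Snail1 KO minus WT (Python 3.11.15, pandas 2.3.3, numpy 2.4.6). The counting was tested on simulated data. All 44 measured members were described; of the other secreted matrix genes and the receptors, those past 2-fold were named, at most 8 a list. Other names were chosen after their values were seen. They are Itga1, Itga2, Itga3, Itga5, Itga6, Itga7, Itga8, Itgav, Itgb1, Itgb3, Itgb5, Dag1, Bcam, Mcam, Cd47, Ccn2, Ccn3, the cell type markers, and those of the closing section. Alternatives were the filter, the choice of probe sets, centring in 20 bins of mean level, and thresholds of 1.5-fold and 3-fold. Promoters came from RefSeq windows of GRCm38.p6.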

Additional observations from a re-analysis of the deposited data

Results flagged for a closer look

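Outside the matrix genes, 4 control probe sets that detect Cre RNA showed a signal in the Snail1 KO cells above that in the WT cells. Their log2 differences were 8.04, 9.52, 9.44 and 10.17. With 1 array per group, no group was large enough to look for a sample apart from the others.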

How the results depend on the processing

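The thresholds set the counts. Of all genes, 652 were 1.5-fold higher and 783 lower, while 23 and 90 passed 3-fold. Lowering the threshold to 1.5-fold gave 5 higher and 8 lower matrix genes, and raising it to 3-fold left 1 higher, Tnxb, and 1 lower, Efemp1. Among receptors, 5 were higher and 6 lower at 1.5-fold and 1 each at 3-fold; among other secreted matrix genes, 5 were higher at 1.5-fold and 2 lower at 3-fold. With the filter at the 60th percentile, Efemp1 and Vcan were left out, and 1 lower matrix gene, Thbs2, and 1 higher, Tnxb, remained. With each gene's probe sets averaged, 77 of all genes were 2-fold higher, 1 other secreted matrix gene was higher (Sned1) and 1 receptor lower (Cd44); Vcan then had a mean below the filter. Without probe sets that can bind several transcripts, 1 receptor was lower (Cd44). The median of the matrix genes ran from -0.16 with no filter to -0.04 at the 60th percentile and stayed negative under the 5 alternatives run for it. Averaging also took Eln to 0.54, Lama5 to 0.28, Lamc1 to 0.43, Fbln2 to 0.43, Lamb1 to -0.36 and Bgn to -0.57, all within 1.5-fold. Of single matrix genes, none past 2-fold changed sign; Fn1, Lox and Nid1 changed sign after centring and Loxl4 and Thbs1 when probe sets were averaged, all from differences under 0.09. No paired analysis was possible because each group holds 1 array, and for the same reason no array could be left out. The table gives no background for a probe set, which limits what dim genes show.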

Other observations

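The genes of this section were grouped after the matrix values had been seen, and their values are given without a test. Versican binds hyaluronan, a long sugar chain made at the cell surface. Of 13 genes for hyaluronan synthesis, breakdown and uptake, 9 were above the filter level, 6 of them higher and 3 lower. Of all genes above the level, 50.9% were lower. The endothelial scavenger receptor Stab2 was at 6.53 on the WT array and 7.91 on the Snail1 KO array, and its relative Stab1 at 10.73 and 11.53. Lyve1, the hyaluronan receptor of lymphatic endothelium, was at 12.99 and 13.18, and its relative Cd44 was 4.70-fold lower. The synthases Has2 and Has3 were below the level on both arrays, and Has1 was at 4.73 and 4.41. Of the proteases that cleave versican, Adamts1 differed by -0.39, Adamts9 by -0.58, Adamts5 by 0.12 and Adamts4 by 0.10, with 0.76 in the other Adamts4 probe set; Adamts15 and Adamts20 were below the level.

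Genes that fold and process matrix proteins were mostly lower, 10 of 13, against 50.9% of all genes above the level. Of these 13, 9 stayed within 1.5-fold, and the median difference was -0.16. The smallest of the lower differences was that of Bmp1, -0.03, with 0.41 in its other probe set. Serpinh1, a collagen chaperone of the endoplasmic reticulum, was at 11.02 on the WT array and 10.05 on the Snail1 KO array, and its 2 probe sets gave -0.97 and -0.94. Tll1, a protease that trims procollagen and lysyl oxidase, was at 6.87 and 5.72, 2.23-fold lower. The prolyl hydroxylase genes P4ha1 and Leprel1 differed by -0.68 and -0.92, although a further P4ha1 probe set gave -0.08. Tgm2, a transglutaminase that crosslinks fibronectin, was at 10.98 and 11.38 and higher in all 5 probe sets above the level, by 0.40 to 0.68. Plod1 and Plod2 were also higher, by 0.50 and 0.05, but their other probe sets gave -0.37 and -0.14.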
